A study of Homo sapiens with 18 samples.

Results

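The regulators and markers of epithelial-mesenchymal transition (EMT) described here were 10 genes of the 62703 gene identifiers of each file. They were chosen by name, with earlier results of these data known. They were the transcription factors SNAI1, SNAI2, TWIST1, ZEB1 and ZEB2, the epithelial surface genes CDH1 and EPCAM, and the mesenchymal genes CDH2, VIM and FN1. All 10 were found in the files, 9 passed the filter on low counts in every comparison, and TWIST1 had no count in any library. Their polyadenylated RNA was measured in MDA-MB-231, an established human breast cancer cell line usually classed as triple-negative and mesenchymal-like. There were 2 libraries for each of 5 groups: Control shRNA, shEZH2 and shE2F1, in which cells took up lentivirus for 24 h and were selected with 2 ug/ml puromycin for 72 h, and DMSO and GSK126, in which cells were kept for 72 h in vehicle or in 1 uM GSK126, an inhibitor of the EZH2 enzyme. EZH2 is the histone H3 lysine 27 methyltransferase of Polycomb repressive complex 2, and E2F1 switches on genes of the G1 to S transition. All groups share this line, and nothing in the labels says that the 2 libraries of a group came from separate cultures, so that p-values measure only the spread between these libraries, which may be technical.

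In EMT, epithelial cells lose adherens junctions and apical-basal polarity and gain motility. The SNAI and ZEB proteins are zinc-finger repressors that bind E-box sequences and are best known for repressing CDH1, which encodes E-cadherin. TWIST1 is a helix-loop-helix factor of the same programme, and CDH2 (N-cadherin), VIM (the intermediate filament vimentin) and FN1 (the matrix protein fibronectin) are the usual readouts of the mesenchymal state.

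ZEB1 and ZEB2 are also the best studied targets of the miR-200 family, which pairs with their 3' untranslated regions. The 5 mature sequences of the family are shown because they explain how ZEB1 and ZEB2 can be read by the same small RNAs. They come from RefSeq (GRCh38.p14) and are written 5′ to 3′ with the seed, bases 2 to 8, in capitals. The first 2 share the seed AACACUG and the other 3 share AAUACUG.
hsa-miR-200a-3p: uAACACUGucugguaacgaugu
hsa-miR-141-3p: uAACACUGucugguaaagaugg
hsa-miR-200b-3p: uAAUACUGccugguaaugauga
hsa-miR-200c-3p: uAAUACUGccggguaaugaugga
hsa-miR-429: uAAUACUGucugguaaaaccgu

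Perfect complements of these seeds (CAGTGTT and CAGTATT, searched on the sense strand only) occurred 9 times in the 2540-base 3' untranslated region of the canonical ZEB1 transcript and 9 times in the 5370 bases of ZEB2. Of 19550 protein-coding genes with such a region in GENCODE release 44, 28.2% held at least 1 of these strings and 0.041% held 9 or more. An example of each kind in each gene is given below, from the sense strand of GRCh38, with the 7 complementary bases in capitals. The first ZEB1 match lies at chr10:31527633-31527639 (plus strand) and the second at chr10:31528046-31528052, while the ZEB2 matches, on the minus strand, lie at chr2:144389053-144389059 and chr2:144389237-144389243.
ZEB1, AAUACUG seed: tatcttatCAGTATTatcactct
ZEB1, AACACUG seed: atcagaatCAGTGTTtgtgattg
ZEB2, AAUACUG seed: ccatacatCAGTATTtttattat
ZEB2, AACACUG seed: attttgtaCAGTGTTaaggccta

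A match of letters is a description and not a measured site. The libraries hold polyadenylated RNA, so that the mature miRNAs were not measured. MIR200CHG, the annotated host transcript of miR-200c and miR-141, had 0 counts in all 10 libraries.

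Total estimated counts ran from 13198932 to 20055550 per library, and values below are counts per 1000000 (CPM) after scaling by edgeR's TMM factors unless another unit is named. Calls of higher or lower required both an adjusted p under 0.01 in edgeR's quasi-likelihood test and more than a 2-fold change. The targeted genes moved with the labels: EZH2 was lower in shEZH2 (log2 fold change −1.79 ± 0.12, SE, n = 2 against 2) and E2F1 in shE2F1 (−2.54 ± 0.24), and E2F1 was also lower in shEZH2 (−1.59 ± 0.23). Of the markers of the line, KRT7, KRT8, KRT18 and KRT19 were measured in every library, PGR had 0 counts throughout and ESR1 0 to 4, while ERBB2 was at 20.0 to 35.6 TPM. Across bulk libraries, fewer cells of a kind and less RNA per cell cannot be told apart.

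Among the 10 genes, VIM stood far above the rest and TWIST1 was not detected. In TPM (transcripts per 1000000), a level per length, the mean over the 10 libraries was 2374 for VIM and 105 for FN1. SNAI2 (32.2 TPM), EPCAM (27.1 TPM) and ZEB1 (19.0 TPM) followed, with ranges over libraries that overlapped. ZEB2 was at 6.06 TPM, below the lowest ZEB1 library and above the highest SNAI1 library. SNAI1 (1.69 TPM), CDH1 (1.38 TPM, median 0.71) and CDH2 (0.49 TPM) came last of those detected, and the range of CDH1 overlapped those of SNAI1 and CDH2. CDH1 and CDH2 rested on 3 to 16 counts in the Control shRNA libraries. The order was the same as CPM per kilobase of effective length or of the longest transcript. The CDH1 level is the least certain of these, because the effective length that RSEM gave it ran from 591 to 4647 bases between libraries. For example, Control shRNA replicate 2 had 3 CDH1 counts and 0.42 TPM, while replicate 1 had 16 counts and 0.26 TPM.

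**Figure D1:**
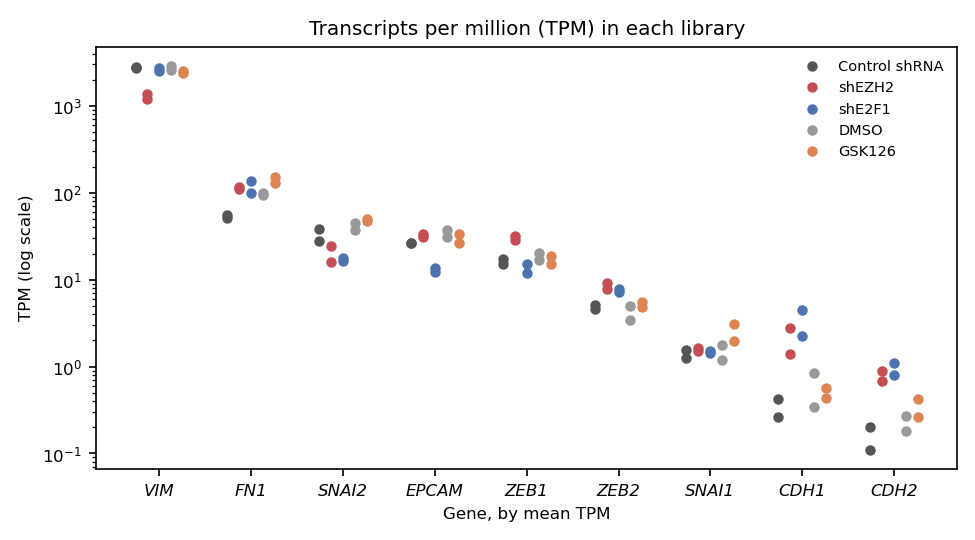
TPM on a log axis of the 9 detected genes, in order of their mean, with each point a library and the colours the 5 groups. VIM lies between 1185 and 2860 TPM in every library, CDH2 between 0.11 and 1.09 TPM, and the CDH1 points spread from 0.26 to 4.50 TPM.

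Of the transcription factors, SNAI2 was lower in both knockdowns, ZEB1 was placed on opposite sides of the controls by the 2 knockdowns, and SNAI1 did not separate from the controls in either. SNAI2 (Slug; ENSG00000019549, chr8:48917598-48921740, minus strand) was at 55.0 and 42.8 CPM in Control shRNA, 30.4 and 21.4 in shEZH2, 21.4 and 22.5 in shE2F1, 61.4 and 56.0 in DMSO, and 68.0 and 70.8 in GSK126. All 4 knockdown libraries lay below both controls, and both GSK126 libraries lay above both DMSO libraries. SNAI2 was called lower in shE2F1 (log2 fold change −1.16 ± 0.17, SE, n = 2 against 2, adjusted p = 0.000316). In shEZH2 its change of −0.94 ± 0.17 had an adjusted p of 0.000898 and was less than 2-fold, so that it was not called. The call in shE2F1 was lost without Control shRNA replicate 1 (−0.97), and a call in shEZH2 was gained without shEZH2 replicate 1 (−1.21) or Control shRNA replicate 2 (−1.10). The test of the difference between the knockdowns did not call SNAI2 (0.22 in shEZH2 minus shE2F1, 95% interval −0.17 to 0.61, adjusted p = 0.293).

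ZEB1 (ENSG00000148516, chr10:31318495-31529814, plus strand) was at 57.3 and 66.5 CPM in Control shRNA, 94.0 and 94.6 in shEZH2, 39.6 and 46.4 in shE2F1, 69.9 and 59.0 in DMSO, and 64.5 and 52.8 in GSK126. The shEZH2 libraries lay above and the shE2F1 libraries below all controls, with no overlap, whereas the drug groups overlapped. Neither change reached 2-fold: it was 0.60 ± 0.11 on the log2 scale in shEZH2 (adjusted p = 0.000979) and −0.53 ± 0.11 in shE2F1 (adjusted p = 0.003). Set directly against each other, the knockdowns differed, with ZEB1 called 2.19-fold higher in shEZH2 than in shE2F1 (log2 1.13 ± 0.11, adjusted p = 1.05e-05). With a correction for GC content and length that difference was 0.84, under 2-fold, and the change in shEZH2 was 0.31.

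ZEB2 (ENSG00000169554, chr2:144364364-144521057, minus strand) was at 12.2 and 13.9 CPM in Control shRNA, 18.1 and 16.8 in shEZH2, 19.4 and 19.5 in shE2F1, 14.4 and 11.5 in DMSO, and 14.2 and 13.3 in GSK126. All 4 knockdown libraries lay above both controls, but the log2 changes were under 2-fold and ZEB2 was not called, at 0.40 ± 0.14 in shEZH2 (adjusted p = 0.0295) and 0.57 ± 0.14 in shE2F1 (adjusted p = 0.00617). The shEZH2 value was 0.01 with the correction for GC content and length.

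SNAI1 (Snail; ENSG00000124216, chr20:49982980-49988886, plus strand) had 19 to 57 counts per library. It was at 1.64 and 1.44 CPM in Control shRNA, 1.43 and 1.61 in shEZH2, 1.49 and 1.35 in shE2F1, 1.20 and 1.98 in DMSO, and 1.99 and 3.36 in GSK126. The knockdown and control libraries overlapped, and the 95% intervals of the log2 change ran from −0.80 to 0.74 in shEZH2 and from −0.89 to 0.63 in shE2F1. TWIST1 (ENSG00000122691, chr7:19020991-19117636, minus strand) had 0 counts in each library, so that its level could be as high as 0.144 to 0.226 CPM (the limit of 3 counts, for counting error alone), and its relative TWIST2 also had 0 counts throughout.

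**Figure D2:**
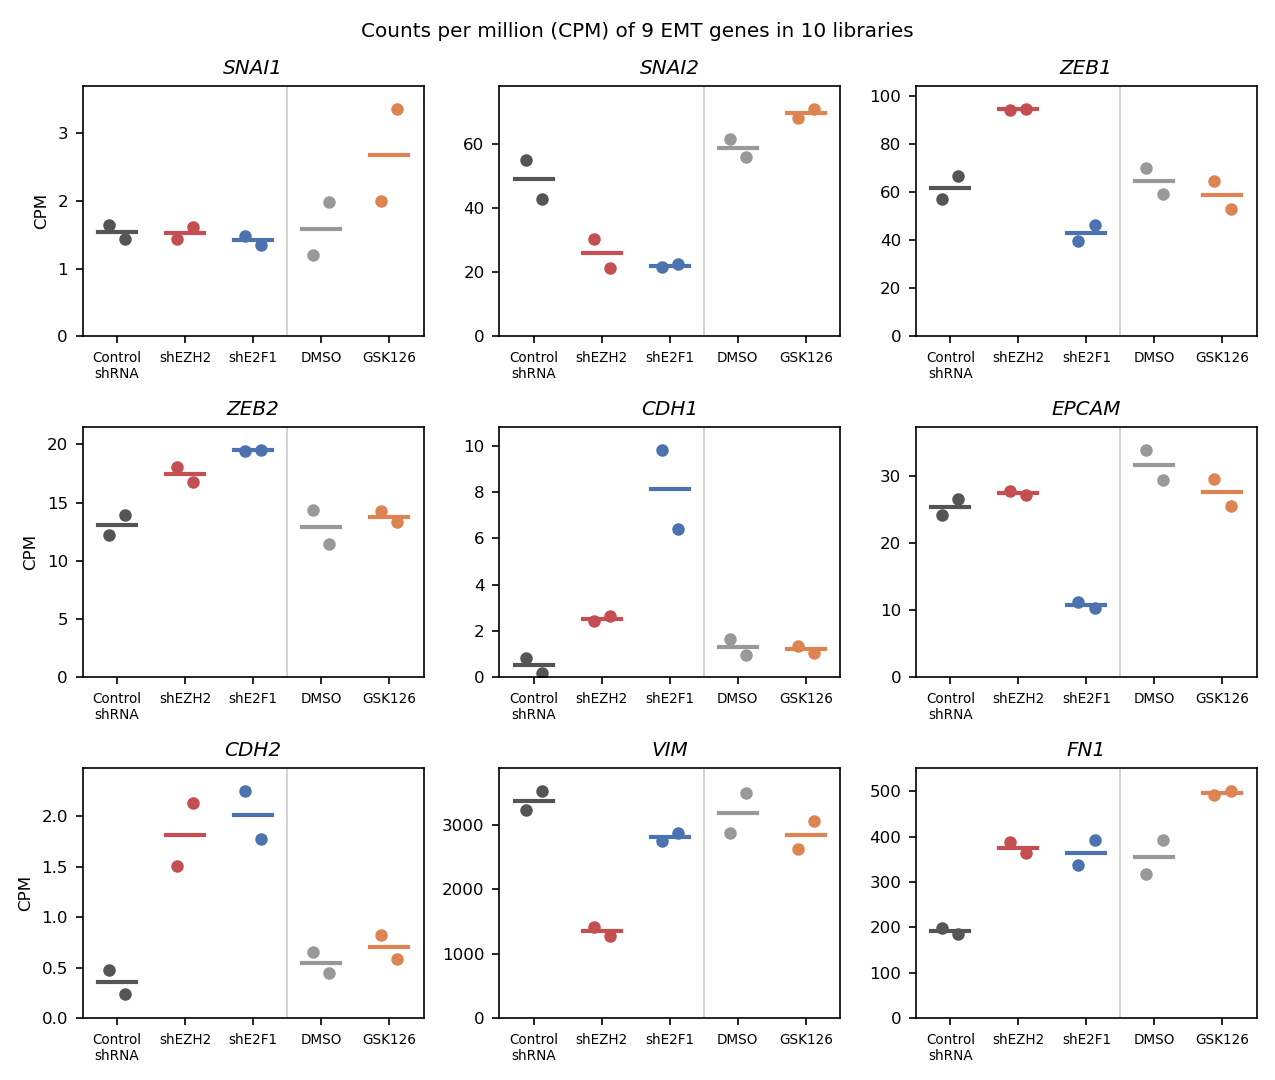
CPM of the 9 detected genes in the 10 libraries, on linear axes from 0, with each point a library and each bar the mean of the 2 libraries of a group. SNAI2 is lowest in the 2 knockdown groups and VIM in shEZH2, ZEB1 separates shEZH2 (94.0 and 94.6 CPM) from shE2F1 (39.6 and 46.4 CPM), and FN1 is higher than in Control shRNA in all other groups.

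The epithelial surface genes did not move together. CDH1 (E-cadherin, the adhesion molecule of adherens junctions; ENSG00000039068, chr16:68737292-68835537, plus strand) had 16 and 3 counts in Control shRNA, 32 and 46 in shEZH2, 205 and 119 in shE2F1, 33 and 17 in DMSO, and 23 and 18 in GSK126. In CPM these were 0.85 and 0.18 in Control shRNA, 2.41 and 2.65 in shEZH2, 9.83 and 6.42 in shE2F1, 1.65 and 0.96 in DMSO, and 1.35 and 1.06 in GSK126. The 4 knockdown libraries were above every other library, and those of shE2F1 were above those of shEZH2. CDH1 was called higher in shE2F1 (log2 3.91 ± 0.45, 15.1-fold, adjusted p = 6.41e-05) and in shEZH2 (2.23 ± 0.50, 4.69-fold, adjusted p = 0.00329), and lower in shEZH2 than in shE2F1 (−1.68 ± 0.37, adjusted p = 0.0025). It passed the count filter through the knockdown libraries, where it was high, and the Control shRNA level rests on 19 counts in all. Without Control shRNA replicate 1 the change was 3.75 in shEZH2 and 5.43 in shE2F1, and without replicate 2 it was 1.56 and no longer called in shEZH2 (adjusted p = 0.0143) and 3.25 in shE2F1. The call in shEZH2 was also lost without shEZH2 replicate 2 (2.17, adjusted p = 0.0145). The difference between the knockdowns was not called without shEZH2 replicate 1 (−1.62, adjusted p = 0.0121), shEZH2 replicate 2 (−1.75, adjusted p = 0.0119) or shE2F1 replicate 1 (−1.34, adjusted p = 0.0461).

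EPCAM (an epithelial adhesion protein and surface antigen; ENSG00000119888, chr2:47345158-47387601, plus strand) went the other way in shE2F1. It was at 24.2 and 26.6 CPM in Control shRNA, 27.8 and 27.2 in shEZH2, 11.2 and 10.4 in shE2F1, 33.9 and 29.4 in DMSO, and 29.7 and 25.5 in GSK126. The shE2F1 libraries were the lowest of the 10 by a wide margin, and EPCAM was called lower there (log2 −1.24 ± 0.13, adjusted p = 3.02e-05). In shEZH2 the change was 0.10 ± 0.12 (95% interval −0.17 to 0.37, adjusted p = 0.501), and the difference between the knockdowns was called (1.34 ± 0.13, adjusted p = 7.88e-06). Of its 50-base words, 1.74% also occur in another annotated gene, so that few of its reads could be divided with a copy.

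Of the mesenchymal genes, CDH2 was higher in both knockdowns and VIM was lower in shEZH2. VIM (ENSG00000026025, chr10:17228241-17237593, plus strand) was at 3217 and 3522 CPM in Control shRNA, 1420 and 1281 in shEZH2, 2742 and 2865 in shE2F1, 2864 and 3490 in DMSO, and 2622 and 3050 in GSK126. The shEZH2 libraries were the lowest of the 10, and overlapped no other group. VIM was called lower in shEZH2 (log2 −1.33 ± 0.10, 0.397-fold, adjusted p = 3.52e-06) and lower in shEZH2 than in shE2F1 (−1.06 ± 0.10, adjusted p = 6.32e-06). That difference was under 2-fold without shEZH2 replicate 2 (−0.98) or with the correction for GC content and length (−0.96). In shE2F1 its value was −0.27 ± 0.10 (adjusted p = 0.0397).

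CDH2 (ENSG00000170558, chr18:27932879-28177946, minus strand) had 9 and 4 counts in Control shRNA, 20 and 37 in shEZH2, 47 and 33 in shE2F1, 13 and 8 in DMSO, and 14 and 10 in GSK126. The 4 knockdown libraries were above the 6 others, although all were low. CDH2 was called higher in shEZH2 (log2 2.30 ± 0.47, adjusted p = 0.00188) and in shE2F1 (2.44 ± 0.46, adjusted p = 0.00154). Like CDH1, it passed the filter through the knockdown libraries. The shEZH2 call was lost without shEZH2 replicate 2 (2.03) or Control shRNA replicate 2 (1.92), and the shE2F1 call without shE2F1 replicate 1 (2.26) or Control shRNA replicate 2 (2.06). A transcript annotated on the opposite strand of CDH2, ENSG00000227279, had 2 and 2 counts in Control shRNA, 7 and 9 in shEZH2, 14 and 19 in shE2F1, 1 and 4 in DMSO, and 1 and 5 in GSK126, and so was also higher in the knockdown libraries. Whether counting used strand is not given in the sources used here, so that reads of these 2 genes may have been counted together. CDH1 and CDH2, which encode an epithelial and a mesenchymal cadherin, were both highest in the same 4 libraries.

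FN1 (ENSG00000115414, chr2:215360440-215436073, minus strand) was at 198 and 186 CPM in Control shRNA, 388 and 363 in shEZH2, 337 and 392 in shE2F1, 318 and 392 in DMSO, and 492 and 501 in GSK126. Both control libraries were below every other library, DMSO included. The change was 0.95 ± 0.10 in shEZH2 (1.94-fold, adjusted p = 2.43e-05) and 0.91 ± 0.10 in shE2F1 (1.88-fold, adjusted p = 4.39e-05), just under the 2-fold limit. It passed that limit without shEZH2 replicate 2 (1.02) or without shE2F1 replicate 1 (1.02), and was 0.61 in shEZH2 with the correction for GC content and length.

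In all, 2 of the 9 genes tested were called higher and 1 lower in shEZH2, where the shares of all 15373 genes tested were 7.52% higher and 10.7% lower. In shE2F1, 2 were called higher and 2 lower, against 5.6% and 5.96% of all genes. The genes called higher in both were CDH1 and CDH2, which passed the filter through the libraries in which they were high, so that these counts say nothing of the 9 genes as a group. Between the knockdowns, 2 were called higher in shEZH2 (ZEB1 and EPCAM) and 2 lower (CDH1 and VIM), against 10.4% and 12.9%. With 9 genes, counts this small can be read only gene by gene, and both knockdowns share their Control shRNA libraries.

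**Figure D3:**
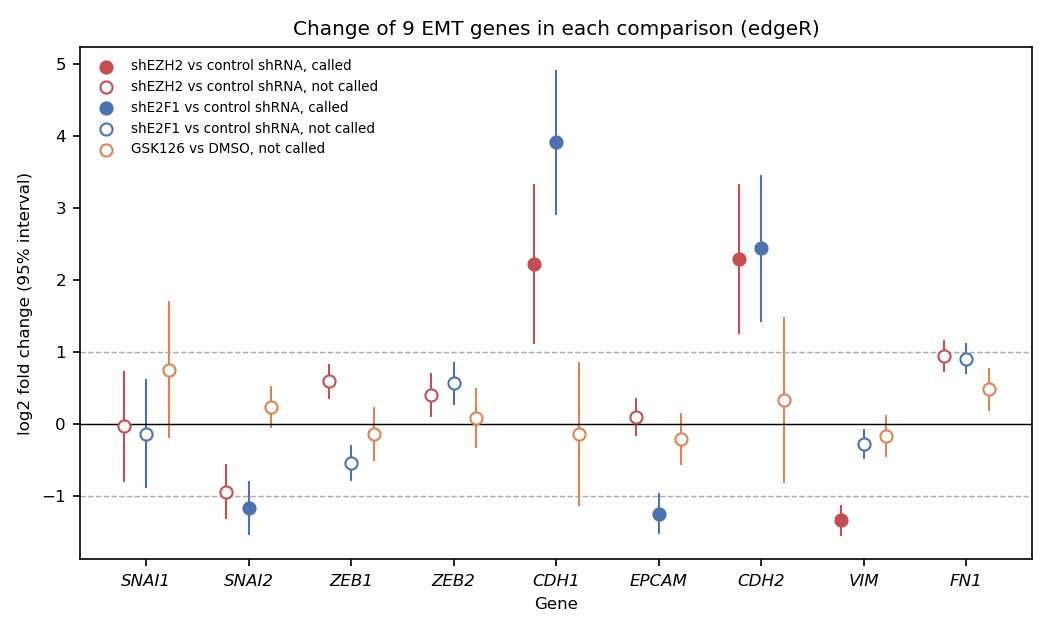
Log2 fold changes with 95% intervals of the 9 genes tested, against Control shRNA for the knockdowns and against DMSO for GSK126, with filled points called (adjusted p under 0.01 and over 2-fold, dashed lines) and open points not called. CDH1 and CDH2 lie over 2 in both knockdowns with wide intervals, VIM is called lower in shEZH2 at −1.33, EPCAM in shE2F1 at −1.24, and every GSK126 point is open.

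In the fit without the replicate numbers, inhibition of EZH2 with GSK126 called none of these genes, and none of 14632 genes tested (0.0% higher and 0.0% lower). Of those, 577 had an unadjusted p under 0.05. DESeq2 called 11 genes, none of them from these 10. With the replicate as a block, a fit with 1 residual degree of freedom, 68 genes in all were called, none of them from these 10. Without the block, the most separated of these genes was FN1, higher in GSK126 by 0.48 ± 0.12 on the log2 scale (unadjusted p = 0.00653, adjusted p = 0.976). Within replicates 1 and 2 it was higher by 0.63 and 0.35. With the block, FN1 (0.49, adjusted p = 5.41e-13), VIM (−0.16, adjusted p = 6.93e-08) and SNAI2 (0.24, adjusted p = 0.00236) were below 0.01 but under 2-fold. SNAI1 was higher by 0.68 and 0.74 within replicates, with a fitted value of 0.76 ± 0.39 (adjusted p = 1.00), from 24 and 35 counts in DMSO and 34 and 57 in GSK126. SNAI2 differed by 0.15 and 0.34 within replicates. CDH1 differed by −0.28 and 0.13, and its 95% interval in GSK126 ran from −1.13 to 0.87. In shEZH2 the CDH1 value was 2.23 (95% interval 1.12 to 3.34). These come from separate fits, and the main test of the difference, given below, did not call CDH1. VIM was at −0.13 and −0.19 within replicates, and at −0.16 ± 0.12 in the fit, which took no account of the replicate numbers.

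The test of the difference between depletion and inhibition of EZH2, fitted over all 10 libraries, called 2 of the 9 genes, both lower in the knockdown. The log2 change in shEZH2 minus that in GSK126 was −1.17 ± 0.23 for SNAI2 (adjusted p = 0.00205), and −1.16 ± 0.17 for VIM (adjusted p = 0.000369). Over all 15773 genes the shares called in this difference were 5.13% higher and 8.67% lower. The SNAI2 call was lost without shEZH2 replicate 2 (−0.93) or Control shRNA replicate 1 (−0.98). ZEB1 (0.75, adjusted p = 0.0103), CDH1 (2.38, adjusted p = 0.0186), CDH2 (1.97, adjusted p = 0.0387) and FN1 (0.48, adjusted p = 0.0413) were not called. CDH1 was called by DESeq2 (2.42), with no filter on low counts (2.36) and with the replicate as a block (2.43, adjusted p = 0.00863). Its value was 3.89 without Control shRNA replicate 1 and 1.70 without replicate 2.

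The genes whose pattern over the 10 libraries was nearest to that of CDH1, by the distance of centred log2 CPM among 13025 protein-coding genes, were FLVCR2 (distance 0.82), FGD4 (1.19) and ZBED2 (1.23). As the choice by likeness to CDH1 fixes, all 3 were highest in shE2F1, with FLVCR2 at 28.9 and 28.5 CPM there against 4.66 and 2.40 in Control shRNA and 8.06 and 10.1 in shEZH2. FGD4 was at 19.8 and 18.0 CPM in shE2F1 against 4.24 and 2.28 in Control shRNA.

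Transcripts of other cell types moved with CDH1 and CDH2. Over 9 genes that mark leukocytes, endothelium and fibroblasts, the summed level was 0.90 to 1.06 CPM in Control shRNA, 7.55 to 7.61 in shEZH2, 4.53 to 6.95 in shE2F1, 1.504 to 1.75 in DMSO and 2.06 to 4.10 in GSK126. Of the 9, LUM and VWF were called higher in both knockdowns. LUM (a matrix proteoglycan of fibroblasts) was higher by 4.34 in shEZH2 and 4.25 in shE2F1, and VWF (an endothelial clotting factor) by 3.45 and 2.43. Like CDH1 and CDH2, both passed the filter through the knockdown libraries, where they were high. In Control shRNA, LUM had 5 and 2 counts and VWF 2 and 5, so that the sizes of these changes are known only roughly. The defining genes CD3E and DCN had 0 counts in all libraries, and PTPRC had 1 to 11 counts. The part of these transcripts in the CDH1 and CDH2 results was not tested.

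Of 18 other EMT transcription factors tested, of 24 listed, 3 were called higher and 3 lower in shEZH2 (median log2 change 0.13, against −0.02 over all genes, of which 7.52% were called higher and 10.7% lower). HMGA2, a chromatin protein that acts upstream of SNAI factors, was at 54.6 and 62.5 CPM in Control shRNA and 207 and 275 in shEZH2 (log2 2.03 ± 0.14, adjusted p = 2.30e-06). SOX4 (2.53) and BACH1 (1.18) were higher too. ID1, an inhibitor of helix-loop-helix factors and a target of BMP signalling, fell from 94.9 and 94.7 CPM to 7.08 and 10.1 (−3.46 ± 0.18, adjusted p = 7.95e-07), and ID3 (−2.44) fell as well. In shE2F1, 3 were called higher and 4 lower (median −0.38), beside 5.6% and 5.96% of all genes. The same shares of all genes stand behind the counts of the lists that follow, and counts of 1 to 4 genes in a list are given as a description of those genes only. Higher there were ID2 (1.80), BACH1 (1.40) and FOXC1 (1.40), and ID1 (−1.24) and FOSL1 (−1.20) were among the lower.

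The epithelial factors that control CDH1 and epithelial splicing were called in both directions. Of 10 tested, of 17 listed, 2 were higher and 2 lower in shEZH2 (median −0.34; 7.52% and 10.7% of all genes), and 2 were higher and 1 lower in shE2F1 (median 0.48; 5.6% and 5.96% of all genes). GRHL1, a grainyhead factor of epithelia, was at 0.74 and 1.20 CPM in Control shRNA and 11.9 and 17.5 in shEZH2 (3.92 ± 0.32, adjusted p = 5.31e-06). ESRP2, an epithelial splicing regulator, was lower in both knockdowns (−1.82 in shEZH2 and −1.60 in shE2F1). TFAP2C, a luminal transcription factor, was called lower in shEZH2 (−1.25) but higher in shE2F1 (1.78), with a shEZH2 minus shE2F1 difference of −3.04 ± 0.18 (adjusted p = 4.32e-07).

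Of 32 epithelial junction and surface genes tested, of 34 listed, 4 were called higher and 4 lower in shEZH2 (median −0.19), beside 7.52% and 10.7% of all genes. In shE2F1, 4 were called higher and 1 lower (median 0.46), beside 5.6% and 5.96%. CLDN1, a tight junction claudin, was called higher in both, from 4.03 and 3.78 CPM in Control shRNA to 25.3 and 28.2 in shEZH2 (2.76 ± 0.15) and 35.2 and 33.0 in shE2F1 (3.12 ± 0.14). ST14, an epithelial membrane protease, was also called higher in both (2.41 in shEZH2 and 1.46 in shE2F1). The keratins KRT7 (−1.82) and KRT19 (−1.40) and the claudin CLDN7 (−1.68) were lower in shEZH2. In shE2F1, MAL2, a protein of apical transport, was higher (2.72), as was the cadherin CDH3 (1.64).

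Mesenchymal effector genes numbered 10 higher and 4 lower of 34 tested in shEZH2, of 42 listed, and 4 higher and 9 lower in shE2F1, with medians of 0.03 and −0.30. Of all genes, 7.52% and 10.7% were called higher and lower in shEZH2, and 5.6% and 5.96% in shE2F1. LOX, which crosslinks collagen, was at 19.7 and 14.2 CPM in Control shRNA and 316 and 383 in shEZH2 (4.35 ± 0.16, adjusted p = 1.48e-07), and COL5A2 (2.35) rose with it. TAGLN (−2.75) and MYL9 (−2.55), both of the contractile cytoskeleton, and the receptor tyrosine kinase AXL (−1.83) fell in shEZH2, and all 3 were also called lower in shE2F1 (−2.48, −1.33 and −2.23). In shE2F1 the matrix genes COL6A3 (−3.90), SPARC (−3.83) and TNC (−3.34) were the lowest. SPARC was near the floor there, at 0.144 and 0.162 CPM against 2.28 and 2.22 in Control shRNA, so that its change is known only roughly. CDH11, a mesenchymal cadherin, was higher in shE2F1 (2.22), as were COL5A2 (1.20) and FBN1 (1.07). TNC, a matrix glycoprotein, went in opposite directions, at 14.1 and 23.0 CPM in Control shRNA, 80.9 and 90.4 in shEZH2 and 1.77 and 1.89 in shE2F1 (difference between the knockdowns 5.54 ± 0.24, adjusted p = 1.25e-07).

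Of the intracellular partners and other classical cadherins, 1 of 9 tested was higher and 1 lower in shEZH2, and 1 was lower in shE2F1, counts too small to set against the shares of all genes. CTNNBIP1, an inhibitor of beta-catenin, was higher in shEZH2 (1.31), and CDH4 (R-cadherin) was lower in both (−1.18 in shEZH2 and −2.67 in shE2F1). Of 19 regulators of SNAI1 and ZEB protein and of miR-200, 1 was higher (FBXL5, 1.27, a ubiquitin ligase subunit) and 1 lower (AJUBA, −1.23, a LIM protein that binds SNAI factors) in shEZH2, no larger shares than the 7.52% and 10.7% of all genes. In shE2F1, 0 of the 19 were called higher and 3 lower, beside 5.6% and 5.96% of all genes. The 3 were LOXL3 (−1.79), HDAC1 (−1.04) and CSNK1A1 (−1.03). In the fit without the replicate numbers, GSK126 called no gene of any of these 6 lists.

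**Figure D4:**
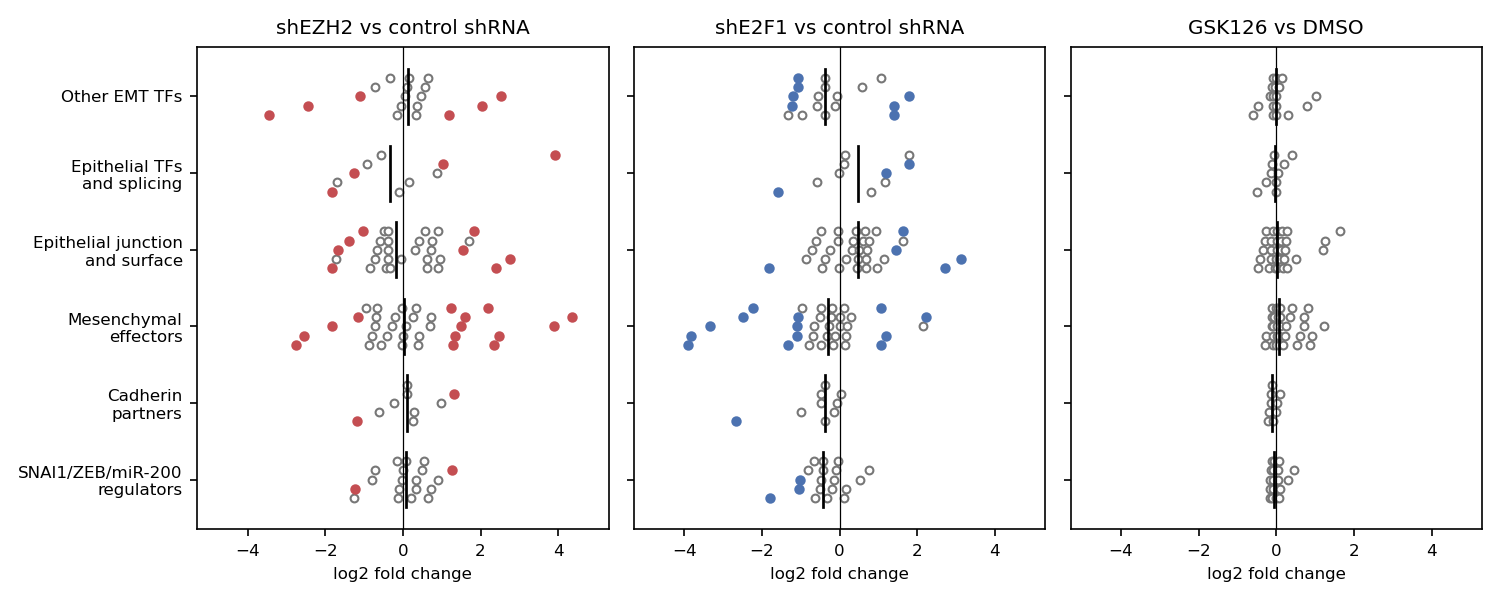
Log2 fold changes of the genes of 6 lists in shEZH2, shE2F1 and GSK126, with each point a gene, filled where called, and a black tick at the median of the list. Points are offset vertically only to keep them apart. Called genes lie on both sides of 0 in the first 4 lists of both knockdowns, and no point is filled for GSK126.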

How the data were processed

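Of 18 sample records, 8 repeated another value for value, and 10 distinct libraries were used. The authors aligned reads of directional poly(A) libraries to GRCh38 with STAR and estimated abundance with RSEM; the submitters' notes name STAR 2.7.2b and RSEM 1.3.1, and the study's methods another STAR version. The deposited files hold RSEM estimated counts per Ensembl gene, in which shared reads are divided, and TPM, which the authors' tool scaled by effective length, also deposited, in bases. TPM was used only for levels between genes, also as CPM per kilobase of effective length and, chosen after seeing the data, of the longest transcript. Names and coordinates came from GENCODE release 44 (99.9% of identifiers found).

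Estimated counts were rounded and tested with edgeR 4.0.16 in R 4.3.3 (filterByExpr, TMM, quasi-likelihood F-test, Benjamini-Hochberg adjustment across the genes that passed the filter). Separate fits held the 6 knockdown libraries, the 4 drug libraries and all 10, the last for the difference between shEZH2 and GSK126. SE is the log2 change divided by the root of F. DESeq2 1.42.0, which the study used, was an alternative, as were DESeq2 size factors, no filter, the replicate as a block, a spline correction for GC content and length, 1 fit of all libraries, adjusted p under 0.05 at any fold, and leaving out each library. The fits were tested on simulated data. The pseudocount was 0.1 CPM for differences within replicates and 0.5 CPM for distances. In lists, the text names up to 3 called genes per direction with the largest change and a mean of at least 1 CPM; some genes that this rule selects are not reported here. The members and lists were chosen with earlier results of these data known.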

Additional observations from a re-analysis of the deposited data

Results flagged for a closer look

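In 2 of the 9 genes tested, the change on depletion of EZH2 differed from the change on its inhibition by the test of that difference. In both, every shEZH2 library lay below Control shRNA. Over all 15773 genes, 8.67% were called lower and 5.13% higher in that difference. SNAI2 differed by −1.17 on the log2 scale, at −0.94 in shEZH2 and 0.24 in GSK126. Its difference was under 2-fold without shEZH2 replicate 2 (−0.93) or Control shRNA replicate 1 (−0.98). VIM differed by −1.16, at −1.33 in shEZH2 and −0.16 in GSK126. The knockdown and drug experiments had their own controls, and the hairpin, the selection and the agent differed between them and cannot be told apart.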

How the results depend on the processing

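Over the 9 genes and 5 comparisons, 467 of 513 alternative values kept their direction and side of the threshold, 16 became calls, 15 lost a call and 15 changed sign, none of the last in a comparison that called the gene. The counts of genes called in shEZH2 and shE2F1, 3 and 4, were 7 and 8 at an adjusted p under 0.05 and any fold. At that threshold 55.6% and 44.7% of all genes tested passed. The 4 called between the knockdowns were 2 with the correction for GC content and length, and 2 to 4 with a library left out. The 2 called between depletion and inhibition were 1 (without shEZH2 replicate 2) to 2 with a library left out. With the GC correction the sign turned for SNAI1 in shEZH2 (0.42), FN1 between the knockdowns (−0.31) and ZEB2 between depletion and inhibition (−0.064). With a library left out, values ran from −0.114 to 0.0695 for SNAI1 in shEZH2, and between the knockdowns from −0.043 to 0.475 for SNAI2, −0.417 to 0.0739 for CDH2 and −0.0672 to 0.153 for FN1. In GSK126 they ran from −0.291 to 0.00538 for ZEB1, −0.0707 to 0.277 for ZEB2 and −0.464 to 0.337 for CDH1. Of 684 alternative counts of called genes in the 6 lists, 591 were within 1.5 times the reported count and 93 were not. The cause was not tested.

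The replicate numbers were not stated to mark a shared culture or day. Deviations of DMSO and GSK126 libraries of the same number correlated (r = 0.748 over 11012 genes above 5 CPM), and other pairs of groups gave −0.125 to 0.185. Over all 15773 genes that passed the filter, the r of DMSO and GSK126 was 0.288, and other pairs gave −0.0712 to 0.096. With the replicate as a block, no member was called in GSK126, and 68 genes in all were; FN1 (0.49, adjusted p = 5.41e-13), VIM (−0.16, adjusted p = 6.93e-08) and SNAI2 (0.24, adjusted p = 0.00236) were below 0.01 but under 2-fold, and the members called in the knockdowns numbered 3 and 4. That fit of the drug libraries had 1 residual degree of freedom. CDH1 was called between depletion and inhibition with the block (2.43, adjusted p = 0.00863). With 1 library left out, 37 to 43 genes in all were called in GSK126. With 2 libraries a group, and 3 to 46 counts of CDH1 or CDH2 outside shE2F1, the sizes of those changes are known only roughly.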
